A study of Mus musculus with 18 samples.

Results

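The levels of 10 genes of neutrophils and their surroundings were described across 18 mouse mammary tumors, out of 57126 genes in the count table. The genes were the calgranulins S100a8 and S100a9, the receptor Csf3r, Retnlg, the stefins Cstdc4, Stfa1, Stfa2 and Stfa3, and the cytokines Csf3 and Il1b. They were chosen by name, and the low level of Cstdc4 in MaP R172H/- tumors, a comparison of these same data, was among the values that led to the choice. For that reason the comparison of MaP R172H/- with MaP -/- tumors is given below for these genes as a description, without a test.

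The tumors arose after adenovirus carrying Cre recombinase was injected into the mammary gland of young adult mice on a mixed BALB/c and C57BL/6J background, where it removed a wild-type Trp53 cDNA from the endogenous locus of ductal epithelial cells. MaP R172H/- tumors (n = 7) then expressed p53 R172H, MaP R245W/- tumors (n = 5) expressed p53 R245W, each beside a Trp53 null allele, and MaP -/- tumors (n = 6, from 4 mice) had lost both alleles. The same virus was thus used in all 3 groups, and 3 MaP R172H/- and 3 MaP R245W/- tumors also carried the Rosa26LSL-TdTomato reporter allele. Tumors were collected when tumor burden was reached, so age at collection was not fixed. Recombination was restricted to epithelial cells that took up the virus, and the leukocytes of each tumor came from tissue that still carried the unrecombined locus.

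Neutrophils are short-lived granulocytes that leave the bone marrow under the control of granulocyte colony-stimulating factor (encoded by Csf3) acting on its receptor (Csf3r), and they are common in mouse mammary tumors. Their cytosol is filled with S100A8 and S100A9, which pair to form calprotectin, a calcium- and zinc-binding danger signal. Stefins are small intracellular inhibitors of cysteine cathepsins, and in the mouse a cluster of near-identical stefin A genes is expressed in neutrophils and in keratinizing epithelium. Interleukin-1 beta (Il1b) is made by activated myeloid cells and induces Csf3 and neutrophil chemoattractants in neighbouring cells.

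The 4 stefins were members of a cluster of 11 stefin genes on chromosome 16 of GRCm39, which began with Csta1 at 35940316 and ended with Stfa3 at 36275884. Cstdc4 lay at chr16:36004483-36008484 (+), Stfa1 at chr16:36093823-36105817 (+), Stfa2 at chr16:36224305-36241288 (-) and Stfa3 at chr16:36270893-36275884 (-). Stretches of 120 coding bases are shown because the stefin counts rest on telling these genes apart. Cstdc4, Stfa2 and Stfa1 are each followed by their closest relative, with bases that differ from the gene above it in capitals, and Stfa3, which has no such close copy, stands alone. The stretch starts at coding base 10 in Cstdc4, Csta2, Stfa1 and Cstdc5 and at coding base 28 in Stfa2, Stfa2l1 and Stfa3.
Cstdc4: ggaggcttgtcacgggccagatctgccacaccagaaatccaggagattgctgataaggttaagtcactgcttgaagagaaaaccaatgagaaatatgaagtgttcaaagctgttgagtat
Csta2: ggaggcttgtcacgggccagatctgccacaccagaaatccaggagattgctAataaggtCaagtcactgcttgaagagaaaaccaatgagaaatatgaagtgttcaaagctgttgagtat
Stfa2: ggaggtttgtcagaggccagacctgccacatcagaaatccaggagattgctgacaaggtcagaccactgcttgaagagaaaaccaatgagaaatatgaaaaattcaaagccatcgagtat
Stfa2l1: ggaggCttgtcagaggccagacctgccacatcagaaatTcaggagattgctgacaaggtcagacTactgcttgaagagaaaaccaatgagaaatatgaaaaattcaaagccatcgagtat
Stfa1: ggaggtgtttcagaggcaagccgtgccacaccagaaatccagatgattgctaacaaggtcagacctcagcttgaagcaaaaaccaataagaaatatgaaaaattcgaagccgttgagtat
Cstdc5: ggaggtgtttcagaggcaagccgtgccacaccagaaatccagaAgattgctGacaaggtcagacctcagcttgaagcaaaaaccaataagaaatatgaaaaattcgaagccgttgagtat
Stfa3: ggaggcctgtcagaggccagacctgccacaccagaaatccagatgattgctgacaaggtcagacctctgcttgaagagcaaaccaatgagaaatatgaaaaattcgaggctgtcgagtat

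Coding sequences were compared over their aligned bases. Cstdc4 and Csta2 were identical at 282 of 291 (96.9%), Stfa2 and Stfa2l1 at 298 of 309 (96.4%), and Stfa1 and Cstdc5 at 285 of 291 (97.9%). The Stfa1 coding sequence holds 441 bases, and those without a counterpart in Cstdc5 are left out of this value. The calgranulins are not copies of this kind, with 60.7% identity between S100a8 and S100a9. Windows of 76 bases, the length of 1 read in the MaP R172H/- libraries, were taken along 1 transcript per gene, the one Ensembl marks as canonical. For Cstdc4, 79.1% of them were unique to the gene, and the others were shared with Csta2. The share of unique windows was 95.1% for Stfa2, 93.9% for Stfa1 and 100% for Stfa3, S100a8, S100a9, Retnlg, Csf3 and Il1b. With windows of 100 bases, the read length of the other libraries, it was 89.4% for Cstdc4 and 100% for Stfa2. Counts of Cstdc4, Stfa1 and Stfa2 are therefore uncertain where a close relative was also expressed.

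In the windows taken here, the promoters of Cstdc4 and Csta2 differed more than their coding sequences. The 250 bases before the transcription start were taken from RefSeq on GRCm38.p6, where 9 of the 10 genes had an entry. They are shown for Cstdc4 and Stfa2, for Csta2, which shares the coding sequence of Cstdc4, and for S100a8. Capitals mark GAGGAA or its reverse complement TTCCTC, the core that the myeloid factor PU.1 binds.
Cstdc4, chr16:36183962-36184211 (+): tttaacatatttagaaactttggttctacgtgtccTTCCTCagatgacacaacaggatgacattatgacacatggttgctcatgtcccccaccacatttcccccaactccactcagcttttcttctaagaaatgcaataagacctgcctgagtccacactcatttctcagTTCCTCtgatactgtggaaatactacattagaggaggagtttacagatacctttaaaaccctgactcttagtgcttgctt
Stfa2, chr16:36408364-36408613 (-): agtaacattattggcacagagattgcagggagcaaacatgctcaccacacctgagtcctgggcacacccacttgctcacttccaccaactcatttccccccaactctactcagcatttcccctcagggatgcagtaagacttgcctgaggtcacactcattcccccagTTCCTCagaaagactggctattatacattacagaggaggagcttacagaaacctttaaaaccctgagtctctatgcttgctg
Csta2, chr16:36221312-36221561 (+): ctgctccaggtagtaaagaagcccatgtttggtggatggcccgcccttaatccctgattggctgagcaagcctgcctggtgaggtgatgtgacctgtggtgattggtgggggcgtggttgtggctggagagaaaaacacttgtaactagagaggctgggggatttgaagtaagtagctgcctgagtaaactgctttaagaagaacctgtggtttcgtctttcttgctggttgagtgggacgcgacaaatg
S100a8, chr3:90668821-90669070 (+): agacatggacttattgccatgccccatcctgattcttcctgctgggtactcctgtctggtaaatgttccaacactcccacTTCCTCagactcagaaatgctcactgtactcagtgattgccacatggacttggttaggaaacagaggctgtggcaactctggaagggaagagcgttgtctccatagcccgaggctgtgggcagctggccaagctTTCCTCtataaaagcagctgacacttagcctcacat

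The promoter of Cstdc4 matched that of Csta2 at 43.3% of aligned bases, where S100a8 and Csta2 matched at 48.5%. Cstdc4 matched those of Stfa2l1 at 77.8%, Stfa1 at 73.2%, Stfa2 at 71.1% and Stfa3 at 70.8%. Whether the Csta2 window lies at the start that corresponds to those of the other stefins was not tested. Among Stfa1, Stfa2 and Stfa3 promoters were at least as alike as coding sequences, with 82.2% against 79.0% for Stfa1 and Stfa2 and 81.8% against 80.9% for Stfa2 and Stfa3. GAGGAA, on either strand, was present in 6 of the 9 promoters (S100a8, Csf3r and the 4 stefins), and in 23.3% of all 32851 promoters in the table. A C/EBP half-palindrome, TTNCNNAA on either strand, was present in 7 of 9, and in 36.8% of all. The stretch TTTAAAACC, picked after the promoters had been read, was found in all 4 stefins at 29 to 31 bases before the start and in 0.3% of all promoters. It also occurred before other genes of the cluster, Stfa2l1, Csta3, Cstdc5 and the pseudogene Cstdc3, and was absent from the windows of Csta1 and Csta2. The stefins are related copies, so their matches are not independent of each other. These matches describe the letters only, and binding was not measured.

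Total counts per tumor ranged from 23113578 to 37365062, and 45551 genes had a count in at least 1 tumor. Levels are given as CPM, the count relative to the TMM-scaled size of the library, and a count of 0 allows a level of up to 0.0860 to 0.135 CPM, depending on the tumor (3 counts, counting error only). The labelled tissue was met by epithelial markers, with Krt18, a keratin of luminal cells, at a median of 371 CPM in MaP -/-, 1401 CPM in MaP R245W/- and 1078 CPM in MaP R172H/- tumors. The summed epithelial list was low in 3 tumors, at 369 CPM in YZ7 against 2327 to 8199.6 CPM in the other MaP R172H/- tumors, at 162 CPM in JM779-T1 against 1034 to 2617 CPM in the other MaP -/- tumors, and at 473 CPM in JM1233 against 3686 to 5736 CPM in the other MaP R245W/- tumors. YZ7 also had the lowest levels of S100a8, S100a9, Csf3r, Csf3 and Il1b, and the part of its tissue content in them was not tested. The neutrophil surface marker Ly6g was low, with a median of 0.497, 0.229 and 0.0864 CPM in the same order and 0 counts in 3 tumors. JM1126, a MaP R245W/- tumor, stood apart from its group for most genes described here. Results of single genes that rest on it are given with and without it, whereas medians of gene lists were taken with it only. For the MaP -/- tumors JM779-T1 and JM836-T1, the labels and the study's list of tumors name different tumors of the mouse. Without both, the median log2 fold change of the genes between MaP R172H/- and MaP -/- tumors, given below as -3.13, was -2.99. All MaP R172H/- libraries were read on a HiSeq 4000 and all others on a NovaSeq 6000, so in any comparison of MaP R172H/- tumors the genotype cannot be told apart from the platform. The paper lists all MaP R172H/- tumors as nonmetaplastic adenocarcinomas of the luminal B or HER2-enriched subtype. It lists all MaP R245W/- and MaP -/- tumors as triple-negative, without Esr1, Pgr or Erbb2 expression, and most of them as metaplastic. Subtype therefore cannot be told apart from the MaP R172H/- genotype either. JM1126 is listed as a nonmetaplastic sarcoma.

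S100a8 and S100a9, the calprotectin subunits, were the most abundant of the 10 genes per length, at a median over the 18 tumors of 16.8 and 15.1 CPM per kb of exon. S100a8 ranged from 0.396 CPM in YZ7 to 209.6 CPM in JM663-T2, a 529-fold span. It was between 0.396 and 17.6 CPM in MaP R172H/- tumors, with a median of 8.38. The MaP R245W/- tumors JM1233, JM1564, RM0014, JM1126 and JM1133 held 4.75, 3.25, 26.2, 97.1 and 29.0 CPM, and the MaP -/- tumors held 8.88 to 209.6 CPM, with a median of 61.6. The order of the medians was thus MaP -/-, MaP R245W/- and MaP R172H/-, but each group overlapped its neighbour, and 2 of the 5 MaP R245W/- tumors were as low as the MaP R172H/- tumors.

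S100a9 followed the same order, with 0.396 to 23.7 CPM (median 8.34) in MaP R172H/- tumors and 14.7 to 291.3 CPM (median 97.8) in MaP -/- tumors. In the MaP R245W/- tumors, in the order given above, it was 4.96, 5.13, 37.3, 152.3 and 46.3 CPM. The calgranulins ranked the tumors nearly alike, with a Spearman rho of 0.986 over 18 tumors. YZ7 was the lowest tumor for both, with 9 counts of each gene, and JM663-T2 the highest.

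**Figure D1:**
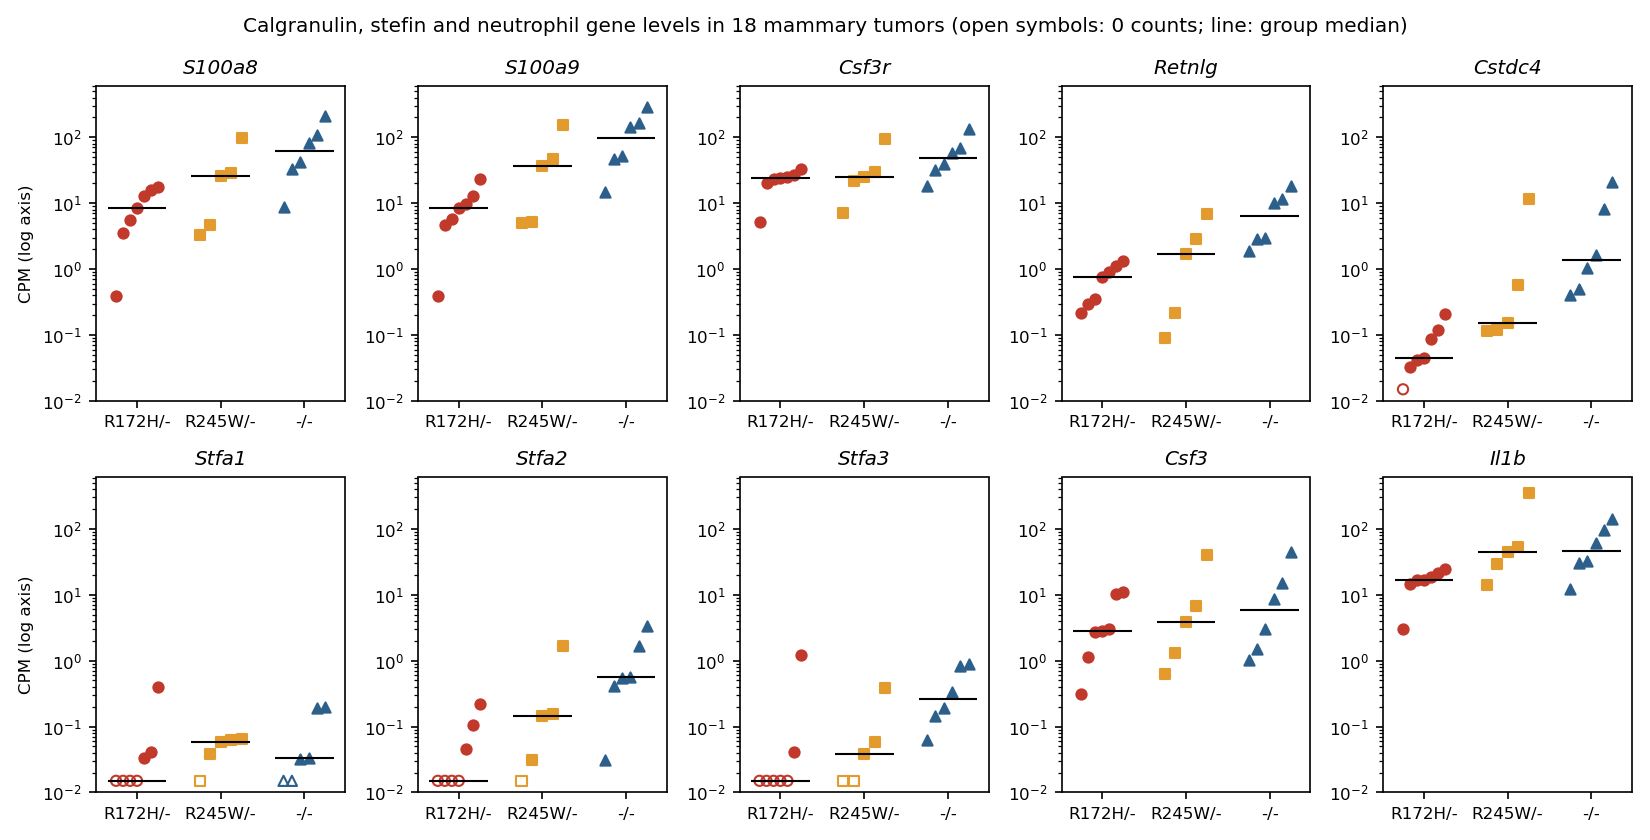
CPM of the 10 genes (log axis) in each tumor of the 3 groups, with a line at the group median and open symbols for 0 counts. The medians of S100a8, S100a9, Retnlg, Cstdc4, Stfa2 and Stfa3 are highest in MaP -/- tumors, and 1 MaP R245W/- tumor, JM1126, lies far above its group.

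Csf3r, the receptor through which Csf3 drives the formation and release of neutrophils, varied less than the calgranulins, by 25.5-fold over the 18 tumors. It was 5.24 to 33.0 CPM (median 23.9) in MaP R172H/- tumors, and 6 of the 7 lay between 20.4 and 33.0 CPM. The MaP R245W/- tumors had 29.9, 7.20, 21.6, 93.4 and 24.8 CPM, and the MaP -/- tumors 18.1 to 133.8 CPM (median 48.2). The medians of the mutant groups were close to each other, and all 3 groups overlapped.

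Because Csf3r and the calgranulins are both neutrophil genes, their ratio was taken within each tumor. The ratio of S100a9 to Csf3r counts was 0.0756 to 0.717 in MaP R172H/- tumors (median 0.383) and 0.816 to 2.52 in MaP -/- tumors (median 1.83). These groups did not overlap, but several ratios were taken and no share over other gene pairs was computed. Platform and read length also follow the MaP R172H/- genotype. In MaP R245W/- tumors it was 0.166, 0.712, 1.72, 1.63 and 1.87, so that JM1233 and JM1564 lay among the MaP R172H/- tumors and the other 3 among the MaP -/- tumors. In bulk tissue, fewer neutrophils and less RNA of a gene per neutrophil cannot be told apart, and Csf3r is also expressed by some monocytes and macrophages.

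Retnlg, which encodes a resistin-like protein secreted by neutrophils and their precursors, was lower still, at 0.216 to 1.32 CPM (median 0.767) in MaP R172H/- tumors. It was 0.0896, 0.216, 1.69, 6.78 and 2.83 CPM in MaP R245W/- tumors and 1.85 to 18.3 CPM (median 6.46) in MaP -/- tumors. Each MaP -/- tumor lay above each MaP R172H/- tumor, and MaP R245W/- tumors spanned both. In YZ7 Retnlg, with 1.32 CPM, exceeded S100a9 3.33-fold, whereas in the other 17 tumors Retnlg was 0.0181 to 0.126 of the S100a9 count.

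Among the stefins, Cstdc4 had the widest range. In MaP R172H/- tumors it lay between 0 and 0.212 CPM (median 0.0451), with at most 6 counts in any tumor and 3 or fewer in 6 of 7. In MaP R245W/- tumors it was 0.119, 0.155, 0.115, 11.8 and 0.573 CPM, and in MaP -/- tumors 0.401 to 21.3 CPM (median 1.35). Every MaP -/- tumor was above every MaP R172H/- tumor, and among MaP R245W/- tumors JM1126 lay far above the other 4. The level in JM1126 rested on 368 counts and that in JM663-T2 on 647.

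The other stefins were near the limit of detection. Stfa2 had 3 or fewer counts in 9 of 18 tumors, Stfa3 in 11 and Stfa1 in 15. Stfa2 was at most 0.220 CPM in MaP R172H/- tumors, was 0, 0.0309, 0.143, 1.66 and 0.153 CPM in MaP R245W/- tumors, and was 0.0308 to 3.30 CPM (median 0.555) in MaP -/- tumors. Stfa3 was 0.0617 to 0.890 CPM in MaP -/- tumors and at most 0.384 CPM in MaP R245W/- tumors, in JM1126. Among MaP R172H/- tumors it had 0 counts in 5 and 37 counts (1.23 CPM) in YZ4, the highest value of the series. Stfa1 never exceeded 9 counts, reached in YZ7 (0.396 CPM), so no order of groups could be read from it at this depth.

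Which stefin genes contributed to the cluster differed between tumors. In JM663-T2, JM1126 and JM779-T1, with 1568, 663 and 596 counts over the cluster, Cstdc4 made up 41.3% (95% Wilson interval 38.9 to 43.7), 55.5% (51.7 to 59.2) and 42.8% (38.9 to 46.8). These intervals cover counting error within 1 library only, and reads shared by paralogs were divided by estimation. Stfa2l1 followed with 23.8%, 21.6% and 24.7%, then Cstdc5 and Stfa2, while Csta2 had 0 counts in all 3. In YZ7 the order was different. There Csta2 held 315 of 396 counts (79.5%, 75.3 to 83.2) and Cstdc6 44, while Cstdc4 had 0 counts, although Cstdc4 and Csta2 share coding sequence.

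YZ4 differed again, with Stfa3 at 37 of 96 counts (38.5%, 29.4 to 48.5), then Csta1 with 21 and Csta2 with 15. The keratinizing epithelium list, 16 genes such as Krt17 and Krt6a, summed to 786 CPM in YZ4, against 18.7 to 110 CPM in the other MaP R172H/- tumors. Its second highest level was 454 CPM in JM663-T2. Its part in the Stfa3 level was not tested. Csta1, at the other end of the cluster from Stfa3, was between 0.135 and 1.08 CPM in all tumors.

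**Figure D2:**
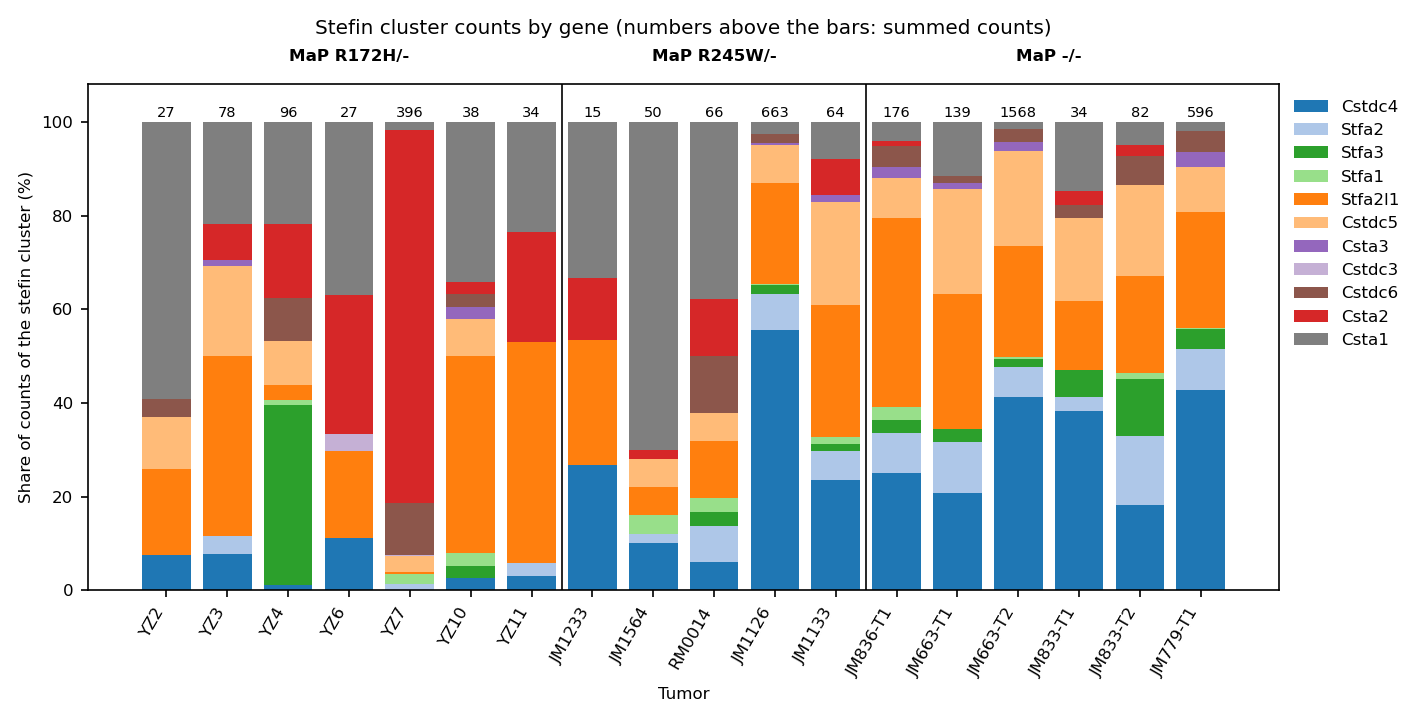
Share (%) of the counts of the stefin cluster held by each of its 11 genes in each tumor, with the summed counts above the bars and the groups divided by lines. Cstdc4 and Stfa2l1 hold the largest shares in JM1126, JM663-T2 and JM779-T1, Csta2 in YZ7 and Stfa3 in YZ4.

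The stefins were set against the neutrophil markers over the 18 tumors as a description. All values come from the same libraries, and genotype and platform are shared within groups. The summed CPM of Cstdc4, Stfa1, Stfa2 and Stfa3 and of S100a8, S100a9, Csf3r and Retnlg had a Spearman rho of 0.688 and a Pearson r of log2 values of 0.778. Over 16 mice, with tumors of 1 mouse averaged, rho was 0.638. Without JM1126 and JM663-T2, the tumors farthest from the median of the stefin sum, it was 0.559. Within the 11 NovaSeq tumors (MaP R245W/- and MaP -/-) rho was 0.973, and within the 7 HiSeq tumors, all MaP R172H/-, it was -0.429. In the HiSeq tumors the summed stefins rested on 2 to 39 counts, and YZ4 and YZ7, which had the highest sums, owed them to Stfa3 and to Stfa1 and Stfa2.

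**Figure D3:**
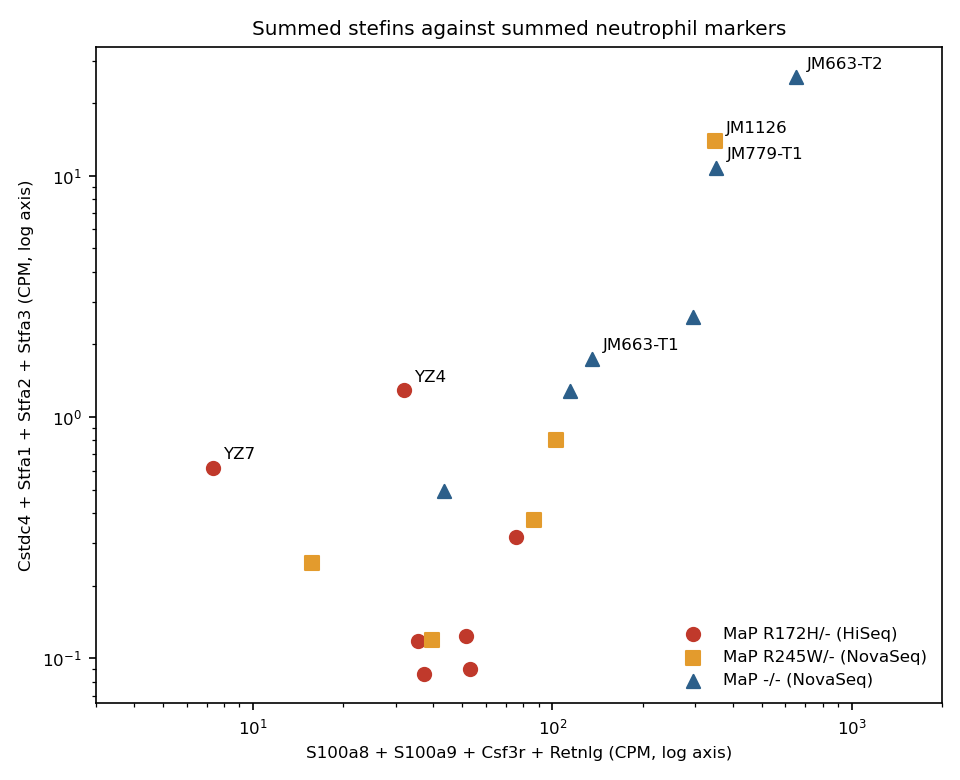
Summed CPM of the 4 stefins (vertical, log axis) against summed CPM of S100a8, S100a9, Csf3r and Retnlg (horizontal, log axis), 1 point per tumor. The NovaSeq tumors (squares and triangles) rise together, whereas the HiSeq tumors (circles) show YZ4 and YZ7 with stefin levels above those of other HiSeq tumors with more neutrophil markers.

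Single stefins differed in how closely they tracked S100a9. The rho of Cstdc4 with S100a9 was 0.876 over all tumors, 0.927 in NovaSeq and 0.679 in HiSeq tumors. Stfa2 reached 0.821 over all tumors and 0.991 in NovaSeq tumors, Stfa3 0.618 and 0.934, and Stfa1 0.209 and 0.477. The closest of the cluster was Stfa2l1, at 0.913 over all tumors and 0.982 in NovaSeq tumors. In contrast, Csta2 had a rho of -0.560 with S100a9, and Csta1 of -0.00103. Low counts limit these values for Stfa1, Stfa2 and Stfa3, and for Cstdc4 in the HiSeq tumors, where it had 0 to 6 counts.

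Csf3, the ligand of Csf3r, departed from the order of the MaP -/- tumors by summed calgranulins only in JM663-T1. It was 0.308 to 10.8 CPM (median 2.85) in MaP R172H/- tumors, 1.31, 0.618, 3.84, 40.2 and 6.64 CPM in MaP R245W/- tumors, and 1.02 to 44.3 CPM (median 5.76) in MaP -/- tumors. The groups overlapped widely. The highest tumors were JM663-T1 and JM1126, and the ratio of Csf3 to Csf3r counts was 1.13 in JM663-T1 against 0.0440 to 0.431 in the other 17 tumors. The rho of Csf3 was 0.717 with S100a9 and 0.750 with Csf3r over 18 tumors.

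Il1b, the myeloid cytokine, was 2.99 to 24.2 CPM (median 16.8) in MaP R172H/- tumors. It was 44.1, 14.001, 53.1, 345.6 and 29.0 CPM in MaP R245W/- tumors and 12.3 to 141.4 CPM (median 46.1) in MaP -/- tumors. Unlike the calgranulins, Il1b had nearly equal medians in MaP R245W/- and MaP -/- tumors. Relative to Csf3r, the ratio of counts was 0.571 to 0.884 (median 0.732) in MaP R172H/- tumors, 1.48, 1.94, 2.45, 3.70 and 1.17 in MaP R245W/- tumors, and 0.683 to 1.41 (median 1.01) in MaP -/- tumors. No MaP R245W/- tumor overlapped a MaP R172H/- tumor in this ratio, and the MaP -/- tumors overlapped both. Here too no share over other gene pairs was computed, and platform and read length differ between the mutants. The ratio of JM1126, 3.70, was the highest, but the other 4 MaP R245W/- tumors were also above the MaP R172H/- range.

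**Figure D4:**
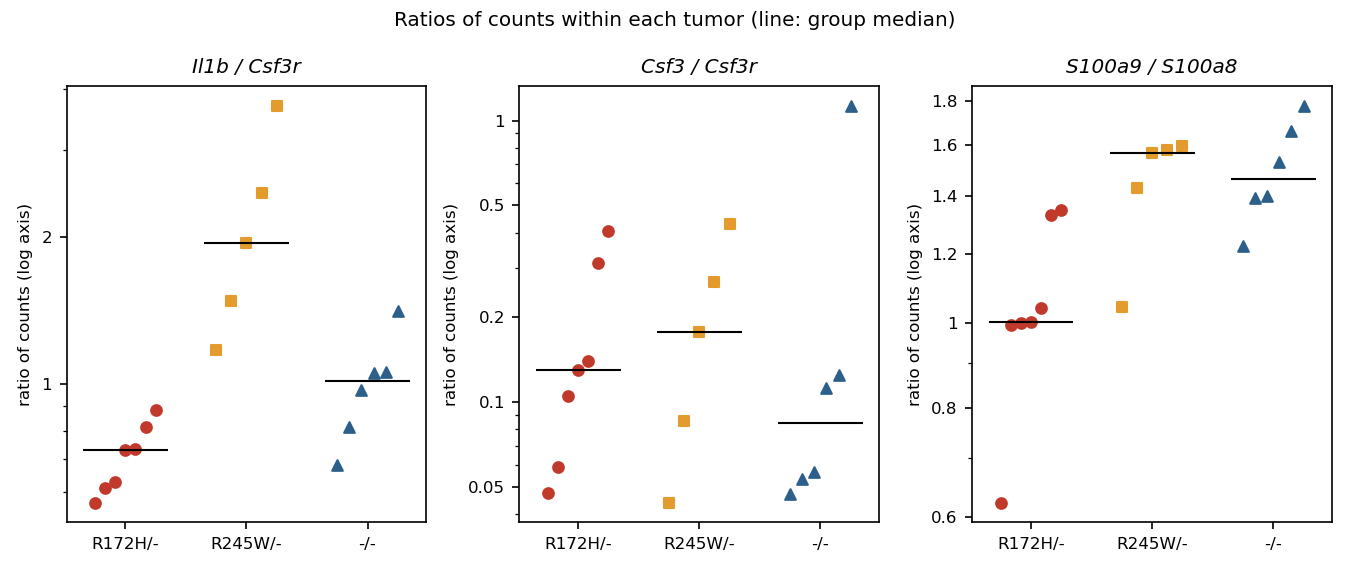
Ratios of counts within each tumor (log axes) for Il1b to Csf3r, Csf3 to Csf3r and S100a9 to S100a8, with lines at the group medians. The Il1b to Csf3r ratio is 1.17 or more in each MaP R245W/- tumor and 0.884 or less in each MaP R172H/- tumor.

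The ratio of S100a9 to S100a8 was 0.623 to 1.35 (median 1.004) in MaP R172H/- tumors, 1.04 to 1.60 (median 1.57) in MaP R245W/- tumors and 1.23 to 1.78 (median 1.46) in MaP -/- tumors. The groups overlapped. YZ10, at 0.623, was the only tumor with clearly more S100a8 than S100a9 counts. Such ratios can also depend on read length, which follows the MaP R172H/- genotype.

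Of the 4 mice with MaP -/- tumors, JM663 and JM833 contributed 2 tumors each, which allowed the genes to be compared within a mouse. In JM663, tumor T2 exceeded T1 4.97-fold for S100a8, 5.63-fold for S100a9, 3.41-fold for Csf3r, 6.39-fold for Retnlg and 4.42-fold for Il1b. Cstdc4 exceeded it 20.3-fold and Stfa2 6.05-fold. Csf3 went the other way, 2.94-fold higher in T1. Thus the tumor with more neutrophil transcripts had less of the ligand transcript in this mouse. In JM833, T2 exceeded T1 3.77-fold for S100a8, 3.18-fold for S100a9, 1.74-fold for Csf3r, 1.26-fold for Cstdc4 and 1.46-fold for Csf3. These are single pairs without replicates.

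The MaP R245W/- tumors were then compared with the MaP -/- tumors, the comparison free of the platform difference, to ask whether this mutant altered the level of these genes. No difference was detected. Of the 8 genes tested, 0 passed an FDR of 0.05, where 0% of 21452 genes did in this comparison. None of the 8 reached an unadjusted p of 0.05, against 11.8% of all genes. DESeq2, which called 424 genes over all those tested, also called 0 of the 8. The calgranulins, Csf3r, Retnlg, Cstdc4 and Stfa2 had values below 0, with log2 fold changes of -1.33 ± 0.91 (SE, FDR = 0.569) for S100a8, -1.27 ± 0.93 (FDR = 0.598) for S100a9 and -1.77 ± 0.97 (FDR = 0.489) for Retnlg. For Csf3r the value was -0.71 ± 0.62 (FDR = 0.666), and for Cstdc4 it was -1.12 ± 1.42 (FDR = 0.772). Csf3, at -0.22 ± 1.14, and Il1b, at 0.65 ± 0.81, were nearest to 0 or above it. Stfa1 and Stfa3 fell below edgeR's filter on low counts. The SEs of 0.62 to 1.42 show that differences of severalfold were not detectable with these tumors. Without JM1126 all 8 values were lower, at -2.37 for S100a8, -2.37 for S100a9, -1.49 for Csf3r, -2.75 for Retnlg, -4.56 for Cstdc4, -3.72 for Stfa2, -1.99 for Csf3 and -0.84 for Il1b, and still 0 passed. Without JM663-T2 those of the neutrophil genes and stefins were nearer to 0, at -0.77 for S100a8, -0.78 for S100a9, -0.28 for Csf3r and -0.69 for Stfa2, and Cstdc4 was at 0.11.

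Between the mutants, Il1b fell in MaP R172H/- tumors relative to MaP R245W/- tumors, with a log2 fold change of -2.57 ± 0.71 (FDR = 0.0301). It was the only 1 of the 7 tested genes other than Cstdc4 to pass. The low Cstdc4 of these same MaP R172H/- tumors entered the choice of the genes. The FDRs of the 7 genes between the mutants are therefore not independent of that choice. In this comparison 6.49% of 22481 genes were lower and 2.91% higher in MaP R172H/- tumors. The call rested on JM1126, without which the value was -1.09 (FDR = 0.264). It was also lost without YZ2 (FDR = 0.054), YZ4 (FDR = 0.0546) or YZ10 (FDR = 0.0512), where the value stayed between -2.60 and -2.54. S100a9 was at -2.39 ± 0.87 (FDR = 0.0908) and passed only with DESeq2 (FDR = 0.0362), and without JM1126 it was at -1.32.

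The remaining genes did not pass between the mutants. S100a8 was at -1.81 ± 0.84 (FDR = 0.183), Retnlg at -1.70 ± 0.81 (FDR = 0.193) and Stfa2 at -2.84 ± 1.22 (FDR = 0.152). Csf3r and Csf3, receptor and ligand, were at -0.65 ± 0.54 (FDR = 0.480) and -1.24 ± 1.03 (FDR = 0.479). Without JM1126 the first 3 were at -0.79, -0.76 and -0.60, and Csf3r and Csf3 turned to 0.12 and 0.53. Cstdc4, for which no test is given, was at -4.95, and at -1.54 without JM1126.

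For MaP R172H/- against MaP -/- tumors, all 7 genes above the filter had log2 fold changes below 0, with a median of -3.13. Cstdc4 was the lowest at -6.06, then S100a9 at -3.66, Retnlg at -3.46 and S100a8 at -3.13. Il1b was at -1.91, Csf3 at -1.43 and Csf3r at -1.34. Without JM663-T1 the value of Csf3 was -0.38. Of the 7, Cstdc4 and Retnlg had groups that did not overlap, as did 2.62% of all 20954 genes tested, with MaP R172H/- below MaP -/- tumors. Of these genes, 4.73% were lower and 3.67% higher at an FDR of 0.05. No test is drawn from this comparison, since it entered the choice of the genes. Stfa1, Stfa2 and Stfa3 were below the filter. The MaP -/- tumors serve as reference both here and for MaP R245W/-, so the values for the mutants share those samples.

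**Figure D5:**
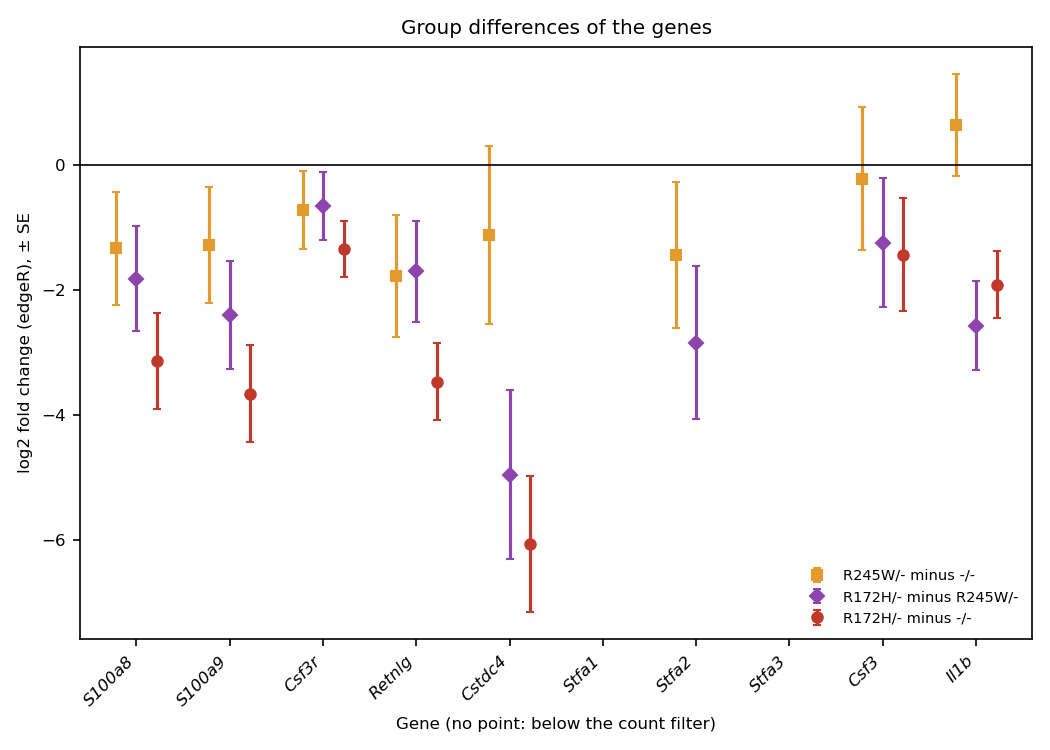
Log2 fold changes with standard errors (edgeR) of the genes above the count filter in the 3 comparisons. Values for MaP R172H/- against MaP -/- tumors (circles) are all below 0, from -6.06 to -1.34, and those for MaP R245W/- against MaP -/- tumors (squares) lie between -1.77 and 0.65.

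Other neutrophil genes were examined through lists of 18 genes of mature neutrophils and 11 granule genes of precursors. Between MaP R245W/- and MaP -/- tumors the median log2 fold change of the mature list was 0.0043, with 9 genes above and 9 below 0, and 0 passed. This balance, and the list values between the mutants that follow, include JM1126 and were not computed without it. Against MaP R245W/- tumors, 17 of 18 genes were below 0 in MaP R172H/- tumors, with a median of -1.41 against 0.0028 over all genes. Mmp9, gelatinase B (-5.43, FDR = 0.021), Cd177, a neutrophil surface antigen (-2.59, FDR = 0.0316), and the formyl peptide receptor Fpr2 (-2.46, FDR = 0.039) fell. All 3 calls were lost without JM1126, which held Mmp9 at 3140 CPM and without which Mmp9 was at -1.50. The call of Mmp9 held in 17 of 18 alternatives, that of Cd177 in 13 of 19 and that of Fpr2 in 9 of 19. Against MaP -/- tumors, 13 of 16 tested genes were below 0 in MaP R172H/- tumors (median -2.11), and Cd177 (-2.61, FDR = 0.0207), Fpr2 (-2.49, FDR = 0.016) and Hdc, histidine decarboxylase (-2.03, FDR = 0.0347), fell. Fpr2 kept this call in 21 of 21 alternatives, Cd177 in 20 of 21, lost without JM663-T2, and Hdc in 11 of 21.

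The sum of the mature list was 28.5 to 287 CPM in MaP R172H/- tumors, 223 to 3731 CPM in MaP R245W/- tumors and 150 to 945 CPM in MaP -/- tumors, with the lowest value in YZ7. A few genes weighed most in it. Mmp9 held 3140 CPM in JM1126, and Pglyrp1 and Slfn4 had medians of 88.1 and 56.3 CPM in MaP R172H/- tumors. The rho of the sum with the summed calgranulins was 0.814. Its genes ran from -0.414 (Itgb2l) to 0.955 (Cxcr2), with Pglyrp1 at -0.038. Without JM1126 the MaP R245W/- tumors lay between 223 and 419.7 CPM, below the MaP -/- maximum.

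Granule genes behaved less uniformly. Lcn2 and Ltf, lipocalin 2 and lactoferrin, held most of their sum, reached 5325 and 8004 CPM in single tumors, are also made by mammary epithelium, and had a rho of -0.108 and 0.201 with the summed calgranulins. Of the 6 granule genes tested against MaP -/- tumors, Chil3 (-3.31, FDR = 0.0341), Ngp (-2.58, FDR = 0.022) and Camp (-2.17, FDR = 0.0187) fell in MaP R172H/- tumors, and the median was -0.82. Camp, which encodes the antimicrobial peptide cathelicidin, kept its call in 20 of 20 alternatives, Ngp in 20 of 21, lost without JM663-T2, and Chil3 in 13 of 21. The call of Chil3 was lost with tumors of 1 mouse summed, among other settings. The medians of the 7 tested against the other groups were -1.36 for MaP R245W/- against MaP -/- tumors and -0.12 between the mutants, with 0 calls in each.

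Chemoattractants and cytokines around Csf3 and Il1b were compared next. Of the 6 neutrophil chemoattractants, among which Cxcl1 and Cxcl5 were the most abundant, 4 to 6 were tested and 0 passed in any comparison. Their medians were -2.96 for MaP R172H/- against MaP -/- tumors, -1.81 between the mutants and -0.27 for MaP R245W/- against MaP -/- tumors. Of 18 genes of the interleukin-1 pathway, Il6 fell by 3.21 (FDR = 0.00807) and Il1rl1, the interleukin-33 receptor, by 8.50 (FDR = 0.0126) in MaP R172H/- relative to MaP -/- tumors. Both calls held in 21 of 21 alternatives, but the size for Il1rl1 followed 1 tumor, JM779-T1, without which it was -6.03, and its MaP -/- levels had a median of 10.3 and a maximum of 3715 CPM. Relative to MaP R245W/- tumors, Il6 fell by 2.67 (FDR = 0.0288) and Il1a, the other interleukin-1 agonist, by 2.77 (FDR = 0.0374), and neither call held without JM1126. The call of Il6 held in 15 of 19 alternatives and that of Il1a in 8 of 18. The medians of this list were -0.15, -0.34 and, for MaP R245W/- against MaP -/- tumors, -0.047 with 0 calls.

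The list of 10 other colony-stimulating factors and receptors had medians of -0.53 for MaP R172H/- against MaP -/- tumors, -0.68 between the mutants and 0.45 for MaP R245W/- against MaP -/- tumors. Its 2 calls lay in the first of these. Csf2ra and Csf2rb are the subunits of the receptor for granulocyte-macrophage colony-stimulating factor, and they moved in opposite directions. Csf2ra rose by 1.20 (FDR = 0.0235) and Csf2rb fell by 0.93 (FDR = 0.0397). Their calls held in 17 and 8 of 21 alternatives, neither without JM663-T2 nor with tumors of 1 mouse summed.

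Receptors of calprotectin, other S100 genes, and the targets of stefins were listed as well. Of 4 calgranulin receptors, Tlr4 fell by 0.99 (FDR = 0.0217) against MaP -/- and by 1.11 (FDR = 0.019) against MaP R245W/- tumors in MaP R172H/- tumors. The first call was lost without JM663-T2 and the second without JM1126. The medians of that list were -0.28, -0.068 and, for MaP R245W/- against MaP -/- tumors, 0.32. Among 17 other S100 genes, S100a11 rose in MaP R172H/- tumors by 1.72 (FDR = 0.0201) against MaP -/- and by 1.66 (FDR = 0.0214) against MaP R245W/- tumors, in all alternatives run. S100a11 thus moved opposite to the values of S100a8 and S100a9. S100a1 rose by 1.24 (FDR = 0.0237) against MaP -/- tumors, a call lost without JM836-T1 or JM663-T2 and with tumors of 1 mouse summed. S100a7a fell by 4.21 (FDR = 0.0217) against MaP R245W/- tumors, not without JM1126 or in a fit of the mutants alone. The medians were -0.14, -0.47 and 0.12 in the same order.

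Of 7 cathepsins that stefins inhibit, Ctsk fell by 1.38 (FDR = 0.00187) and Ctsc by 0.83 (FDR = 0.0433) in MaP R172H/- relative to MaP -/- tumors. Ctsc encodes the dipeptidyl peptidase that activates the serine proteases of neutrophil granules. Its call held in 6 of 21 alternatives, and not with tumors of 1 mouse summed. Relative to MaP R245W/- tumors, Ctsk (-2.27, FDR = 0.0194), Ctsl (-2.09, FDR = 0.034) and Ctsc (-0.91, FDR = 0.045) fell, none of them without JM1126. These calls held in 17, 11 and 6 of 19 alternatives. The medians were -0.44, -0.55 and, for MaP R245W/- against MaP -/- tumors, 0.31 with 0 calls. Of 17 listed stefin and cystatin genes outside the 4 described, 7 were tested and 0 passed in any comparison, with medians of -0.25, -0.17 and 0.45. Among them Stfa2l1 and Cstdc5, the closest relatives of Stfa2 and Stfa1, were at -3.07 ± 0.90 and -3.30 ± 1.004 in MaP R172H/- against MaP -/- tumors, and Csta1 at 0.47. Stfa2l1 and Cstdc5 share some windows of 76 bases with Stfa2 and Stfa1, so their values in this comparison are given as a description.

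Markers of other cell types moved with some of these results. In MaP R172H/- relative to MaP -/- tumors the general leukocyte genes Ptprc (CD45, -1.24, FDR = 0.0176) and Itgam (CD11b, -1.48, FDR = 0.011) fell, as did the monocyte genes Ccr2 (-1.45, FDR = 0.0101) and Ms4a6c (-1.004, FDR = 0.0483) and the macrophage genes Mrc1 (-2.03, FDR = 0.0236) and Adgre1 (-1.04, FDR = 0.00688). Of these, Ptprc held in 21 of 21 alternatives, Adgre1, Ccr2 and Itgam in 20, Mrc1 in 18, not without JM663-T2, and Ms4a6c in 6. All 5 general leukocyte genes and 4 of 4 monocyte genes, but 5 of 8 macrophage genes, were below 0, with medians of -0.55, -0.90 and -0.05. Summed leukocyte genes were 200.1 to 382 CPM in MaP R172H/-, 199.9 to 972 in MaP R245W/- and 371 to 1025 in MaP -/- tumors. Relative to Ptprc, the counts of S100a9 were 0.00596 to 0.175 in MaP R172H/- and 0.0769 to 1.04 in MaP -/- tumors, which overlapped. The part of overall leukocyte content in the neutrophil gene levels was not tested.

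Between the mutants, Adgre1 (-1.31, FDR = 0.0302), Ccr2 (-1.85, FDR = 0.046) and Itgam (-1.38, FDR = 0.0424) fell in MaP R172H/- tumors. Of 19 alternatives, the call of Adgre1 held in 13, that of Itgam in 8 and that of Ccr2 in 7. Without JM1126 the calls of Ccr2 and Itgam were lost, and that of Adgre1 was lost without YZ2, YZ4, YZ10 or JM1233. The medians of the leukocyte, monocyte and macrophage lists were -0.81, -0.70 and -0.36 there, and 0.096, -0.23 and 0.071 for MaP R245W/- against MaP -/- tumors, with 0 calls. T cell and B cell lists had 0 calls in all comparisons, with medians of -1.24 and -3.56 in MaP R172H/- and -1.48 and -4.38 in MaP R245W/- against MaP -/- tumors, and of 0.34 and 0.76 between the mutants. The B cell values followed 1 tumor, JM833-T2, with 257 CPM against 13.3 CPM or less in the other 17.

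Blood in the samples was followed with 8 erythroid and platelet genes. Pf4 fell by 2.54 (FDR = 0.0361) in MaP R172H/- relative to MaP -/- tumors, a call that held in 10 of 21 alternatives, with a list median of -2.37, against -1.44 between the mutants and -0.69 for MaP R245W/- against MaP -/- tumors. The summed list was 25.3 to 89.7 CPM in MaP R172H/-, 48.2 to 380 CPM in MaP R245W/- and 27.4 to 538 CPM in MaP -/- tumors, and its rho with the summed calgranulins was 0.527. The 3 highest were JM779-T1, JM1126 and JM663-T2, which also had the 3 highest calgranulin sums, and its part in these was not tested. The epithelial list had medians of 1.28, 0.63 and 0.66 in MaP R172H/- against MaP -/-, MaP R172H/- against MaP R245W/- and MaP R245W/- against MaP -/- tumors, and the keratinizing list had medians of 0.14, 0.73 and 0.72. Both had 0 calls.

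Finally, the genes whose levels ranked the 18 tumors most like these genes were sought among 22367 genes, by Spearman rho. For the summed calgranulins they were Cxcr2, the receptor for neutrophil chemokines (0.955), Stfa2l1 (0.942), Trem4 (0.930), Hdc (0.903) and Ifitm1 (0.891). For the summed stefins they were Trem3 (0.907), Cstdc5 (0.893), the pseudogenes Gm4240 (0.851) and Gm8337 (0.837), and Retnlg (0.847). Trem3 and Trem4 are receptors of the TREM family on myeloid cells. For Csf3r they were Gm43181 (0.955), Mefv (0.934), Mbnl3 (0.922), Trim30b (0.917) and Gad1-ps (0.911), and for Il1b they were Sirpb1b (0.932), Smim15 (0.930), Tlr13 (0.920), Cd300c2 (0.917) and Gm44876 (0.913). Csf3 was nearest to Gcnt2 (0.882), Rai14 (0.872), Il1r2 (0.866), Stfa2l1 (0.849) and Cd44 (0.843), so that only 2 of its 5, Il1r2 and Stfa2l1, belonged to the neutrophil or stefin lists.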

How the data were processed

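Total RNA from 18 mouse mammary tumors was depleted of ribosomal RNA and sequenced with a stranded protocol. The authors used STAR 2.7.10b for alignment to GRCm39, RSEM 1.3.3 with GENCODE M34 to estimate gene counts, and deposited 1 table of whole-number counts without normalization. RSEM divides reads shared by paralogs by estimation, which affects the stefins. Of 57126 genes, 56620 matched GENCODE M39 by identifier, and positions and lengths come from that annotation. The other 506 held at most 0.0464% of the counts of a tumor.

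Counts were normalized with TMM, filtered with filterByExpr and tested with edgeR 4.0.16 (quasi-likelihood test, R 4.3.3), with Benjamini-Hochberg FDR over all genes tested, and all adjusted values come from this tool unless DESeq2 1.42.0 is named. Each mutant group had a fit of its own with the MaP -/- group, and the mutants were compared in a fit of all 18 tumors. No covariate for platform was possible, since all MaP R172H/- libraries and no others came from the HiSeq. Tumors of 1 mouse entered as separate samples, so their spread is partly within mice. CPM use TMM library sizes, and a pseudocount of 0.1 CPM was added before log2 values for Pearson correlations. The genes described, 17 gene lists and the rule for named genes were chosen with earlier results of these data known. The rule took the 10 genes, the stefin cluster, list genes past an FDR of 0.05 (at most 4 per direction) or among the 2 most abundant of a list, and the 5 genes nearest to each pattern by Spearman rho. Ly6g, a defining marker, was named outside it. Alternatives were RLE size factors, DESeq2, other count filters, summed tumors of 1 mouse, a summed stefin cluster, other fits and each tumor left out. The scripts were tested on simulated data. Python 3.11.15 with numpy 2.4.6, pandas 2.3.3, scipy 1.17.1 and matplotlib 3.10.9 was used for the rest.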

Additional observations from a re-analysis of the deposited data

Results flagged for a closer look

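Each gene or sum within 1 group made 1 of 36 sets of values. In these, 14 values lay far from the nearest other tumor of their group relative to the range of the group (Dixon's test at 95%). Chance gives about 1 in 20 where values are normally distributed. The CPM were skewed, so that rate does not hold here, and the 14 are given as a description. JM1126 accounted for 10 of them within the MaP R245W/- group. It held 97.1 CPM of S100a8, 152.3 of S100a9, 93.4 of Csf3r, 11.8 of Cstdc4, 1.66 of Stfa2, 0.384 of Stfa3, 40.2 of Csf3 and 345.6 of Il1b, and 13.9 and 349.5 CPM of the summed stefins and the summed neutrophil markers. The nearest tumors held 29.0 CPM of S100a8, 46.3 of S100a9, 29.9 of Csf3r, 0.573 of Cstdc4 and 53.1 of Il1b. These values come from 1 library and are not independent of each other.

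Within the MaP -/- group, JM663-T2 held 21.3 CPM of Cstdc4, against 8.24 in JM779-T1, and JM663-T1 held 44.3 CPM of Csf3, against 15.0 in JM663-T2, the other tumor of the same mouse. Within the MaP R172H/- group, YZ7 held 0.396 CPM of Stfa1 (9 counts) and YZ4 held 1.23 CPM of Stfa3 (37 counts), against 0.0411 CPM in YZ10 for both.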

How the results depend on the processing

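Most values kept their direction and their side of the threshold. Of 442 values under the alternatives, from those of the 10 genes that passed the count filter, 425 did so. Of the rest, 9 changed sign, 4 lost and 1 gained a call and 3 moved by more than their SE. Stfa1, Stfa3 and the summed stefin cluster had no main value and were not among them. Of 725 values of called list genes, 177 lost the call and 0 changed sign. No gene of the 10 passed between MaP R245W/- and MaP -/- tumors under any alternative run, and leaving out each tumor in turn gave 0 to 0. Between the mutants the number was 1, was 2 with DESeq2, and was 0 to 1 with each tumor left out. The median log2 fold change of -3.13 between MaP R172H/- and MaP -/- tumors was -1.91 with the stefin cluster summed to 1 gene, and -3.52 to -2.58 with each tumor left out. The rho of summed stefins with summed markers, 0.688, was 0.973 in NovaSeq and -0.429 in HiSeq tumors, and 0.630 to 0.797 with each tumor left out.

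Signs turned for Csf3 in MaP R245W/- against MaP -/- tumors, at 0.039 with tumors of 1 mouse summed and -1.99 to 0.85 with each tumor left out. With each tumor left out, Cstdc4 ran from -4.56 to 0.11 and Il1b from -0.84 to 1.07 in that comparison, and Csf3r from -0.91 to 0.12 and Csf3 from -1.63 to 0.53 between the mutants. Over all genes, DESeq2 called 424, 3703 and 3432 genes in MaP R245W/- against MaP -/-, MaP R172H/- against MaP R245W/- and MaP R172H/- against MaP -/- tumors, where edgeR called 0, 2114 and 1760. A log2 fold change of at least 1 left 1392 between the mutants, and the count was 1126 for MaP R172H/- against MaP -/- tumors with tumors of 1 mouse summed. JM779-T1 and JM836-T1, for which the labels and the study's list of tumors name different tumors of the mouse, were left out together as an alternative chosen after seeing the data, which gave 1074 and, for MaP R245W/- against MaP -/- tumors, gave 5. A fit of all 18 tumors gave 2 there. With each tumor left out, the counts over all genes were 0 to 3, 1525 to 2362 and 1067 to 1866, lowest without JM663-T2 for the last. The causes of these changes were not tested. Depth limits Stfa1, Stfa2 and Stfa3, which had 3 or fewer counts in 15, 9 and 11 of 18 tumors. No paired analysis was possible because the replicate numbers were assigned in accession order and the labels pair no tumors across groups.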
